A study of Mus musculus with 18 samples.

Results

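The genes described are the CLEC family of C-type lectins, taken as all genes whose symbol begins with Clec and a number and that are carried by a probe set with a single gene symbol. This rule found 33 of the 19752 genes measured, and it used no measured value. Whole-transcript arrays (Affymetrix Mouse Gene 1.0 ST, 18 in number) covered 9 sorted populations with 2 arrays apiece. The donors were male mice of the B6 (C57BL/6) background, 6 weeks old. Every animal had been given 10000 U of interferon gamma (IFNg) under the skin 2 h earlier, so the populations share that treatment and no value here is a response to it. Untreated animals were not analysed here. Dendritic cells (DC) were gated as CD11c+ MHCII+ Flt3+, granulocytes (GN) as Ly6G+, NK cells (NK) as NK1.1+ TCRB-, and NKT cells (NKT) as NK1.1+ TCRB+. The T cell gates were CD4+ TCRB+ (T4), CD8+ TCRB+ (T8), TCRgd+ TCRB- (Tgd) and CD4+ TCRB+ CD25+ (Treg). These 8 populations came from spleen. Macrophages (MF), gated as F4/80+ ICAM2+, came from the peritoneal cavity, so tissue and cell type cannot be told apart for them. Separate mice behind the arrays of a population are not stated, and p-values therefore measure only the spread between arrays, which may be technical. In such sorted bulk RNA, fewer cells expressing a gene and less RNA per cell cannot be told apart.

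C-type lectin receptors share a fold that in many members binds sugars in a calcium-dependent way. In myeloid cells several of them recognise fungal or mycobacterial cell walls and signal through the adaptors FcR gamma (Fcer1g) or DAP12 (Tyrobp), the kinase Syk and the scaffold Card9, while others carry inhibitory tails that recruit phosphatases such as SHP-1 (Ptpn6). Several Clec2 proteins are instead ligands, bound by the NKR-P1 receptors of NK cells, which the Klrb1 genes encode. Of the measured members, 25 lie on mouse chromosome 6, many of them side by side with each other or with Klrb1 genes.

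Summed over their lists, DC, granulocyte, peritoneal macrophage, NK and Treg markers were each highest on the 2 arrays of the population they name, and T cell markers on T4 and T8 arrays. The median intensity lay between 138.5 and 151 on each array. Correlations between arrays were 0.9897 to 0.9959 within and 0.8016 to 0.99 between populations.

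The members with the largest ranges were highest in a myeloid population, while 15 of 33, among them Clec2d and Clec16a, ranged over less than 2-fold. Over the 9 populations, 18 of 33 members passed the test, which asked for a moderated F test in limma with an adjusted p under 0.05 and a range of population means of at least 2-fold (1 on the log2 scale, on which all levels below are given). Of all genes 39.0% passed. The median range was 2.28 for the members and 0.71 for all genes. In 17 of the 18 members that passed, the population with the highest mean was myeloid, GN for 11, DC for 4 and MF for 2, and in the remaining member, Clec2i, it was Tgd. Among all genes that passed, GN held the highest mean of 20.5%, MF of 25.4% and DC of 10.9%. In the same 17 members both arrays of the highest population lay above all other arrays, with Clec2i as the exception.

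**Figure D1:**
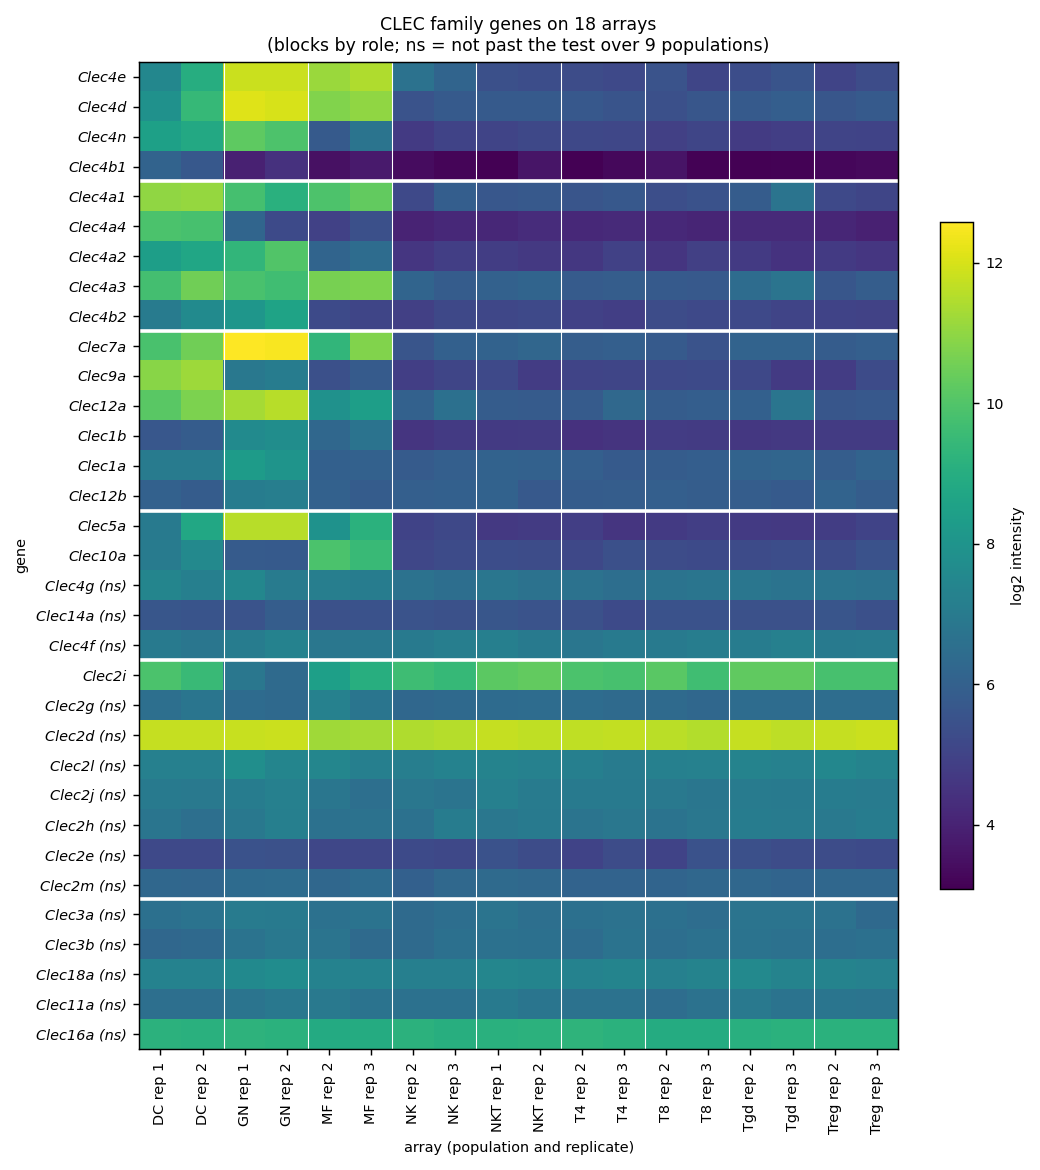
Log2 intensity of the 33 CLEC members (rows, in blocks by role) on the 18 arrays (columns, 2 per population); ns marks the 15 members that did not pass the F test over 9 populations. Levels can be compared along a row, not between rows, and the members with the largest ranges are bright on the DC, GN or MF arrays and dark on the 12 lymphoid ones.

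The mean of DC, GN and MF was higher than the mean of the 6 lymphoid populations in 16 members (6.39% of all genes were called higher) and lower in 1, Clec2i (4.41% of all genes were called lower). The highest differences were those of Clec7a (5.01 ± 0.15, SE), Clec4e (4.97 ± 0.16), Clec4d (4.84 ± 0.15) and Clec4a1 (4.58 ± 0.13). In 14 members every myeloid array lay above every lymphoid array. They include Clec4g, whose difference stayed under 2-fold, and leave out Clec4b1, Clec4b2 and Clec1a, which were called but overlapped with lymphoid arrays. Among the 6 lymphoid populations alone, 2 members passed the F test, against 9.95% of all genes, and the median range was 0.27 for members and 0.33 for all genes.

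Probe sets differ in brightness, so a rough floor was taken from 1027 olfactory receptor genes, which these cells are not known to use as receptors. The 95th percentile of their population means was 6.76. The mean of a member lay above it for 25 members in GN, 22 in DC and 17 in MF, and for 8 or 9 in each lymphoid population. At or below it in all 9 populations, and so near background, were Clec4b1, Clec14a, Clec2e and Clec2m, as were 29.8% of all genes. The same floor served all populations, although the median olfactory receptor gene read 5.18 in GN, 4.95 in DC and 4.88 in MF. In the lymphoid populations that median ran from 4.94 to 5.11. Shares of all genes above the floor in each population are not given here, so these counts are only a description.

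The promoters of the family bear on the setting, since factors of the IRF family, which bind ISRE sites, take part in interferon responses. RefSeq promoters on build GRCm38.p6, from 250 bases before to 50 after the start site, were at hand for 26 members, as 29 promoters among 32851. An ISRE-type match, read as GAAA, any 2 bases and GAAA on either strand, was present in 3 members, Clec4b1, Clec4d and Clec2d. These are 11.5% of the 26 members. Counted by promoter, matches lay in 3 of the 29 member promoters and in 1131, or 3.44%, of all promoters. The PU.1-type letters GAGGAAGT, after a factor of myeloid cells, were found in 0 of the 26 members on either strand and in 3.2% of all promoters. No motif matches overlapped in the promoters shown. Such letters are a description, not a site. The stretches that hold the matches are given from 200 bases before to 10 bases after the start site, so that they can be set beside the levels of these genes, with the match in capitals. All lie on chromosome 6, plus strand, at chr6:123049762-123049971 for Clec4b1, chr6:123261907-123262116 for Clec4d and chr6:129180415-129180624 for Clec2d. The match begins 75 bases before the start site in Clec4b1, 189 before in Clec2d and at the start site in Clec4d.
Clec4b1: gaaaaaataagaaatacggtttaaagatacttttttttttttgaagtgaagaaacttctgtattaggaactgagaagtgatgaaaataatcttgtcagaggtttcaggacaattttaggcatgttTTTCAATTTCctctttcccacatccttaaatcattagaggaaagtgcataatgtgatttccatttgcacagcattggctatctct
Clec4d: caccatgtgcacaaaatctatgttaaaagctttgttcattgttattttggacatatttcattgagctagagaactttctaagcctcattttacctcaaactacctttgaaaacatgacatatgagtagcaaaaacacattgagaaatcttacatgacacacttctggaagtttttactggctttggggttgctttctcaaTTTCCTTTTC
Clec2d: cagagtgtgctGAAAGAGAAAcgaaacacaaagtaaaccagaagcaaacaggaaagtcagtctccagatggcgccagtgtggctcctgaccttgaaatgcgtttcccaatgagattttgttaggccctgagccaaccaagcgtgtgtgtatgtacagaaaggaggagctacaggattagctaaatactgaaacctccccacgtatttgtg

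All 4 receptors of the Dectin-2 cluster that couple to FcR gamma passed the test (39.0% of all genes). Clec4e (Mincle), a receptor for the mycobacterial cord factor, read 11.83 and 11.83 on the GN arrays, 11.14 and 11.47 on MF, 7.48 and 9.01 on DC, and from 5.02 to 6.67 (median 5.32) on the 12 lymphoid arrays. Its partner Clec4d (MCL) read 12.13 and 12.00 in GN, 10.77 and 10.99 in MF, 7.88 and 9.45 in DC, and 5.42 to 5.93 (median 5.74) on lymphoid arrays. For both genes GN and MF were high, DC lay between and lymphoid arrays were low, with no overlap between myeloid and lymphoid arrays. Clec4d was higher in GN than in MF by 1.18 ± 0.30 (adjusted p = 0.00261), whereas the difference of Clec4e, 0.53 ± 0.32, did not pass (adjusted p = 0.146). In MF, Clec4e exceeded DC by 3.06 ± 0.32 (8.32-fold, adjusted p = 4.4e-07) and Clec4d by 2.21 ± 0.30 (4.64-fold, adjusted p = 1.14e-05).

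Clec4n (Dectin-2), which binds fungal mannans, had another order. It read 10.21 and 9.94 in GN, 8.49 and 8.83 in DC, 5.78 and 6.73 in MF, and 4.71 to 5.16 (median 5.01) on lymphoid arrays. Here GN was above DC by 1.42 ± 0.21 (adjusted p = 2.29e-05), and MF was below DC with a difference of -2.41 (adjusted p = 5.86e-08), whereas its neighbours Clec4d and Clec4e were higher in MF than in DC. Clec4b1 was highest in DC, at 6.09 and 5.69, against 3.96 and 4.42 in GN, 3.53 and 3.78 in MF, and 3.09 to 3.64 (median 3.24) on lymphoid arrays. Its range of 2.76 passed (adjusted p = 9.57e-09), yet its highest mean lay below the olfactory floor.

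The Clec4a genes encode the DCIR receptors, and Clec4a2, or DCIR, carries an inhibitory tail. All 4, and Clec4b2, which lies between Clec4a2 and Clec4n, passed the test over 9 populations (39.0% of all genes). Clec4a4 (DCIR2), known as a surface marker of a subset of spleen dendritic cells, read 9.90 and 9.81 on the DC arrays, 6.17 and 5.20 in GN, 4.91 and 5.40 in MF, and 3.96 to 4.28 (median 4.18) on lymphoid arrays. The DC arrays stood alone. GN differed from DC by -4.17 and MF by -4.70, and DC exceeded the mean of the other 8 by 5.39 ± 0.16 (41.8-fold, adjusted p = 1.78e-14). Clec4a1 was spread over all myeloid arrays, at 11.02 and 11.08 in DC, 9.91 and 10.30 in MF, 9.76 and 9.13 in GN, and 5.07 to 6.74 (median 5.63) on lymphoid arrays. GN differed from DC by -1.60 ± 0.25 (adjusted p = 4.28e-05), while the MF value, -0.94 ± 0.25 from DC, stayed under 2-fold.

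Clec4a3 was the most even of these across myeloid cells. It read 10.62 and 10.70 in MF, 9.74 and 10.52 in DC, 9.87 and 9.65 in GN, and 5.62 to 6.75 (median 5.88) on lymphoid arrays, and no difference among the 3 myeloid populations reached 2-fold (GN minus MF -0.90 ± 0.19, adjusted p = 0.000589). Clec4a2 read 9.33 and 10.02 in GN, 8.41 and 8.70 in DC, 6.14 and 6.43 in MF, and 4.47 to 4.92 (median 4.69) on lymphoid arrays. Clec4b2 followed the same order, at 8.09 and 8.59 in GN, 7.05 and 7.62 in DC, 5.21 and 5.08 in MF, and 4.86 to 5.28 (median 5.06) on lymphoid arrays. Its MF arrays overlapped with the lymphoid ones, and those of Clec4a2 did not. GN exceeded MF by 3.39 ± 0.19 in Clec4a2 and 3.20 ± 0.17 in Clec4b2. Against DC the GN differences were 1.12 ± 0.19 and 1.00 ± 0.17, and both lost the 2-fold call without DC replicate 1 (0.97 and 0.72) or without GN replicate 2 (0.77 and 0.76). Probes for the near-identical genes of this cluster may share transcripts, which was not tested. The median of 7 monocyte markers was 9.50 and 9.25 in GN, 8.68 and 9.89 in DC, and 10.76 and 11.23 in MF. On lymphoid arrays that median ran from 6.47 to 7.16. The part of monocyte RNA in the GN levels of Clec4a1 and Clec4a3 was not tested.

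All 6 receptors of the Dectin-1 cluster passed (39.0% of all genes). Clec7a (Dectin-1), the receptor for fungal beta-glucan, had the largest range of the family, 6.89 (adjusted p = 1.69e-12). It read 12.58 and 12.50 in GN, 9.86 and 10.51 in DC, 9.32 and 10.79 in MF, and 5.51 to 6.22 (median 5.96) on lymphoid arrays. GN stood above DC by 2.35 ± 0.31 and above MF by 2.49 ± 0.31, while DC and MF overlapped (MF minus DC -0.13 ± 0.31, adjusted p = 0.815). Clec12a (MICL), an inhibitory receptor for uric acid crystals, read 11.28 and 11.55 in GN, 10.16 and 10.72 in DC, 7.91 and 8.39 in MF, and 5.64 to 6.77 (median 5.89) on lymphoid arrays. MF was 4.89-fold below DC (adjusted p = 7.89e-07), and the GN difference from DC, 0.98 ± 0.25, missed 2-fold (adjusted p = 0.00313).

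Clec9a (DNGR-1), which senses actin exposed by dead cells and marks cross-presenting dendritic cells, read 10.90 and 11.18 in DC, 6.90 and 7.06 in GN, 5.42 and 5.82 in MF, and 4.71 to 5.25 (median 5.07) on lymphoid arrays. DC exceeded the mean of the other 8 by 5.69 ± 0.14 (51.7-fold, adjusted p = 1.79e-15). GN also stood above the mean of its own other 8, which holds DC, by 1.13 ± 0.14 (adjusted p = 1.21e-06), and above MF by 1.37 ± 0.18. Summed over 12 DC markers, intensity in GN was 3684 and 3124, against 57340 and 55640 in DC. Only the NKT arrays summed lower (2494 and 2342). Such sums are weighted to bright genes, among them Ccr7 (12.13 and 12.31 in T4) and Irf8 (12.44 and 12.38 in MF). Counted by gene, 11 and 8 of the 12 markers lay above the olfactory floor on the GN arrays. On the other arrays outside DC this count was 6 to 8. The part of DC RNA in the GN level of Clec9a was not tested.

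The 3 remaining receptors of the cluster were highest in GN. Clec1b (CLEC-2), the podoplanin receptor best known from platelets, read 7.64 and 7.73 in GN, 6.25 and 6.72 in MF, 5.65 and 5.86 in DC, and 4.44 to 4.78 (median 4.70) on lymphoid arrays. Of 6 platelet and megakaryocyte markers measured, Ppbp read 9.27 and 10.36 in GN and 6.63 and 10.05 in DC, and Pf4 read 12.58 and 12.39 in MF, with summed intensity of 1864 and 2681 in GN, 866.4 and 2160 in DC, and 6823 and 6019 in MF. The MF sum rests on Pf4, since Ppbp (5.18 and 5.37 in MF), Itga2b, Gp9, Tubb1 and Treml1 all read lower in MF than in GN. The median of the 6 markers was 8.16 and 8.15 in GN, 7.25 and 7.98 in DC, and 7.28 and 7.24 in MF. The lowest array summed to 706.7, and the part of platelet RNA in the levels of Clec1b was not tested. Clec1a, a receptor for fungal melanin, read 8.30 and 8.01 in GN, 7.03 and 7.04 in DC, 6.00 and 6.05 in MF, and 5.78 to 6.19 (median 5.96) on lymphoid arrays, so that MF overlapped with lymphoid arrays. Clec12b, an inhibitory receptor, read 7.09 and 7.16 in GN, 6.04 and 5.86 in DC, 6.05 and 5.86 in MF, and 5.75 to 6.12 (median 5.90) on lymphoid arrays. Only GN stood apart, with a difference of 1.20 ± 0.09 from the mean of the other 8 (adjusted p = 2.49e-09).

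**Figure D2:**
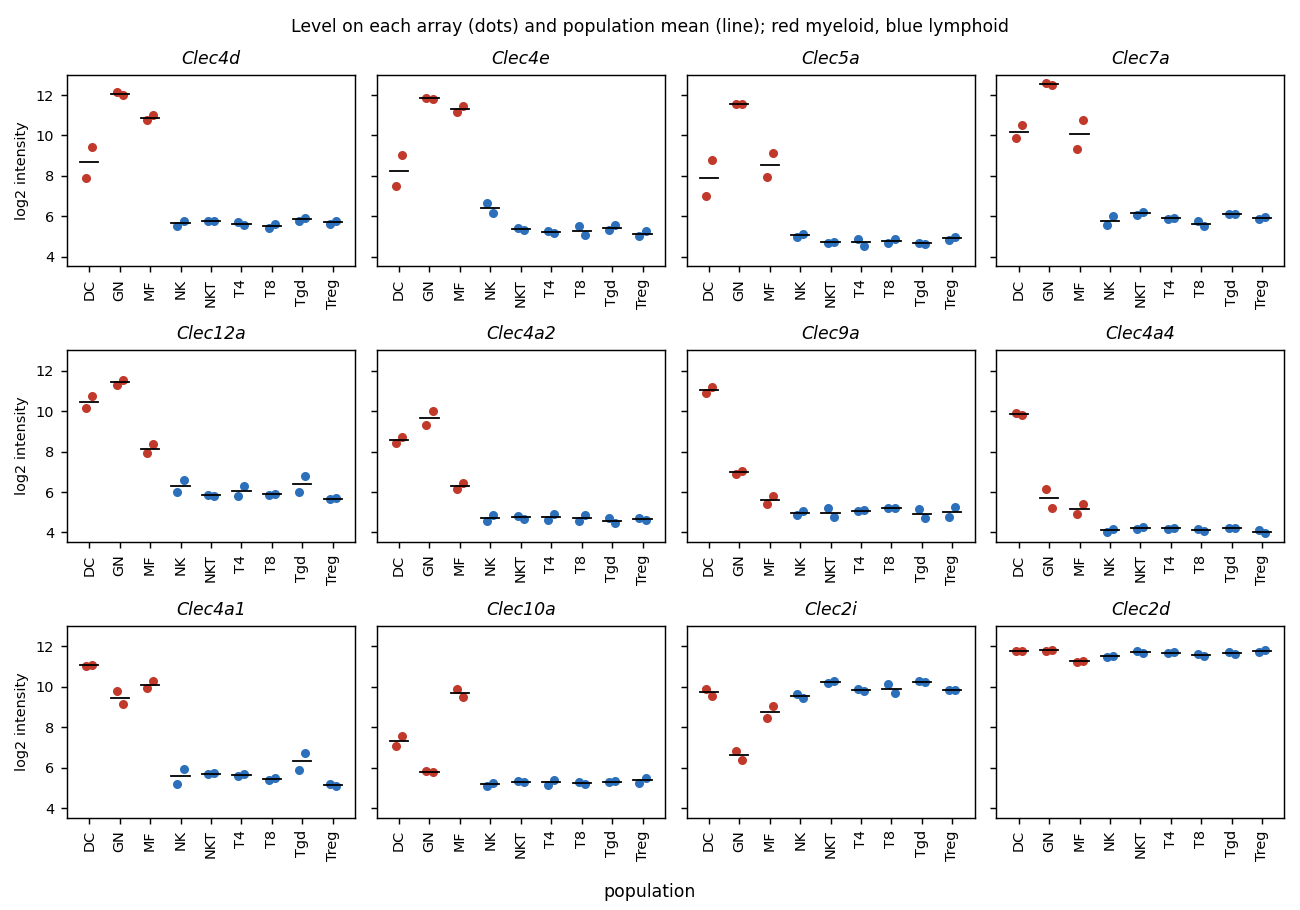
Log2 intensity of 12 CLEC members in the 9 populations, each array a dot (red myeloid, blue lymphoid) and each population mean a line. Clec4d, Clec4e and Clec5a are highest in GN, Clec9a and Clec4a4 in DC, Clec10a in MF, and Clec2i is lowest in GN at 6.84 and 6.38.

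Among the other membrane lectins 2 of 5 passed, near the share of all genes (39.0%). Clec5a (MDL-1), which signals through DAP12, read 11.56 and 11.56 in GN, 7.94 and 9.14 in MF, 6.98 and 8.79 in DC, and 4.56 to 5.14 (median 4.78) on lymphoid arrays. It stood 59.7-fold above the mean of the other 8 in GN (5.90 ± 0.29, adjusted p = 8.81e-12), while DC and MF overlapped (MF minus DC 0.66 ± 0.39, adjusted p = 0.239). Clec10a (MGL1), a receptor for galactose-type sugars, was highest in MF, at 9.88 and 9.50 in MF, 7.05 and 7.56 in DC, 5.83 and 5.79 in GN, and 5.10 to 5.49 (median 5.28) on lymphoid arrays. MF exceeded DC by 2.39 ± 0.15 (adjusted p = 7.59e-10) and the mean of the other 8 by 4.09 ± 0.11 (17.1-fold, adjusted p = 4.8e-15). Clec4f, a Kupffer cell receptor, Clec4g (LSECtin), of liver sinusoidal endothelium, and Clec14a, of endothelium, did not pass. Clec4g still read 7.03 to 7.47 on the 6 myeloid arrays and 6.51 to 6.81 on the lymphoid ones. A further probe set of Clec4g, dimmer at a mean of 6.12, spanned 5.82 to 6.37.

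The DC arrays differed from each other mainly in Clec5a, Clec4d and Clec4e, all of them highest in GN. Replicate 2 exceeded replicate 1 by 1.80 in Clec5a, 1.58 in Clec4d and 1.53 in Clec4e, and these were the 3 members of 33 at or past 2-fold. All 12 granulocyte markers were also at least 2-fold higher in DC replicate 2, with a median of 1.92, among them Ly6g (7.63 and 10.26) and S100a8 (9.26 and 11.31). Their summed intensity was 8691 and 30710 on the DC arrays, 91100 and 103200 in GN, 2508 and 2634 in MF, and 744.3 to 2334 on lymphoid arrays. Monocyte markers were higher by a median of 1.21 (4 of 7 at least 2-fold) and red pulp macrophage markers by 1.01 (6 of 10), while the DC markers differed by a median of -0.10. Without DC replicate 2 the DC differences from the mean of the other 8 became 0.74 for Clec4d, 0.48 for Clec4e (adjusted p = 0.0674) and 0.87 for Clec5a, from 1.53, 1.24 and 1.77, and all 3 calls were lost. The part of RNA of these other cells in the DC levels was not tested beyond this. In MF, replicate 3 was higher than replicate 2 by 1.47 in Clec7a and 1.19 in Clec5a, where granulocyte markers differed by a median of -0.07.

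**Figure D3:**
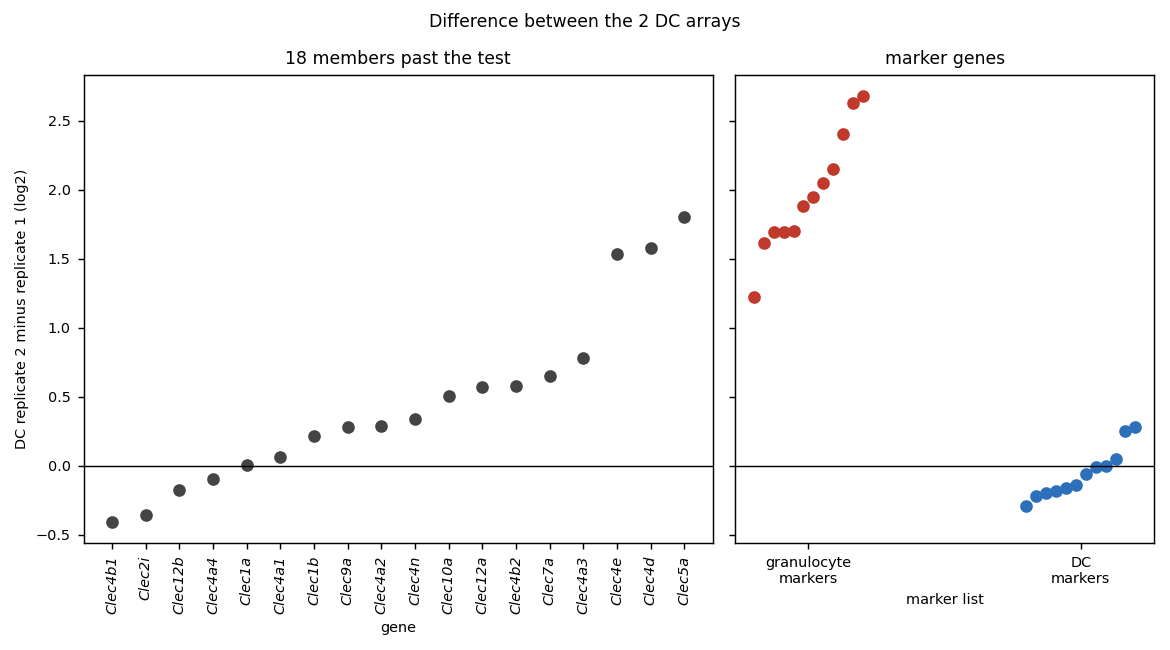
Difference in log2 intensity between DC replicate 2 and DC replicate 1 for the 18 CLEC members that passed, 12 granulocyte markers and 12 DC markers, each gene a point. Clec5a, Clec4d and Clec4e lie between 1.53 and 1.80, in the range of the granulocyte markers (1.22 to 2.67), and the DC markers lie between -0.29 and 0.28.

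Set against the mean of the other 8 populations, DC was higher in 14 members (5.31% of all genes; 11 members without DC replicate 2), GN in 14 (7.03%) and MF in 8 (7.56%). These contrasts share their arrays. In GN 1 member was lower, Clec2i, where 11.7% of all genes were. No member was called higher in NK (2.45% of all genes), NKT (1.64%), T4 (1.33%), T8 (1.43%), Tgd (1.24%) or Treg (1.50%). In limma at an unadjusted p under 0.05, 0, 3, 1, 1, 1 and 2 members were higher in these populations in that order. Lower calls were made for 10 members in NK (2.62% of all genes), 10 in NKT (2.28%), 10 in T4 (2.37%), 10 in T8 (3.00%), 8 in Tgd (1.29%) and 11 in Treg (2.22%).

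Direct contrasts separated the myeloid populations by member. Against DC, MF was higher in 3 members, Clec4e, Clec10a and Clec4d (5.89% of all genes), and lower in 8 (4.97%), from Clec9a at -5.42 ± 0.18 and Clec4a4 at -4.70 ± 0.21 to Clec1a at -1.01 ± 0.12. GN was higher than DC in 10 members (5.77%), led by Clec5a at 3.67 ± 0.39, Clec4e at 3.58 ± 0.32 and Clec4d at 3.40 ± 0.30, and lower in 6 (11.1%), among them Clec4a4, Clec9a, Clec2i and Clec10a. GN was higher than MF in 11 members (6.58%), led by Clec4n at 3.82 ± 0.21, Clec4a2 and Clec12a, and lower in 2, Clec10a at -3.88 ± 0.15 and Clec2i at -2.14 ± 0.20 (14.1%). The call of Clec1a between MF and DC lay at the 2-fold limit and was lost under quantile normalization (-0.93) and without MF replicate 2 (-0.99). Likewise, that of Clec1b between GN and MF (1.20) was lost without MF replicate 2 (0.96), and that of Clec1a between GN and DC (1.12) without GN replicate 1 (0.97).

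**Figure D4:**
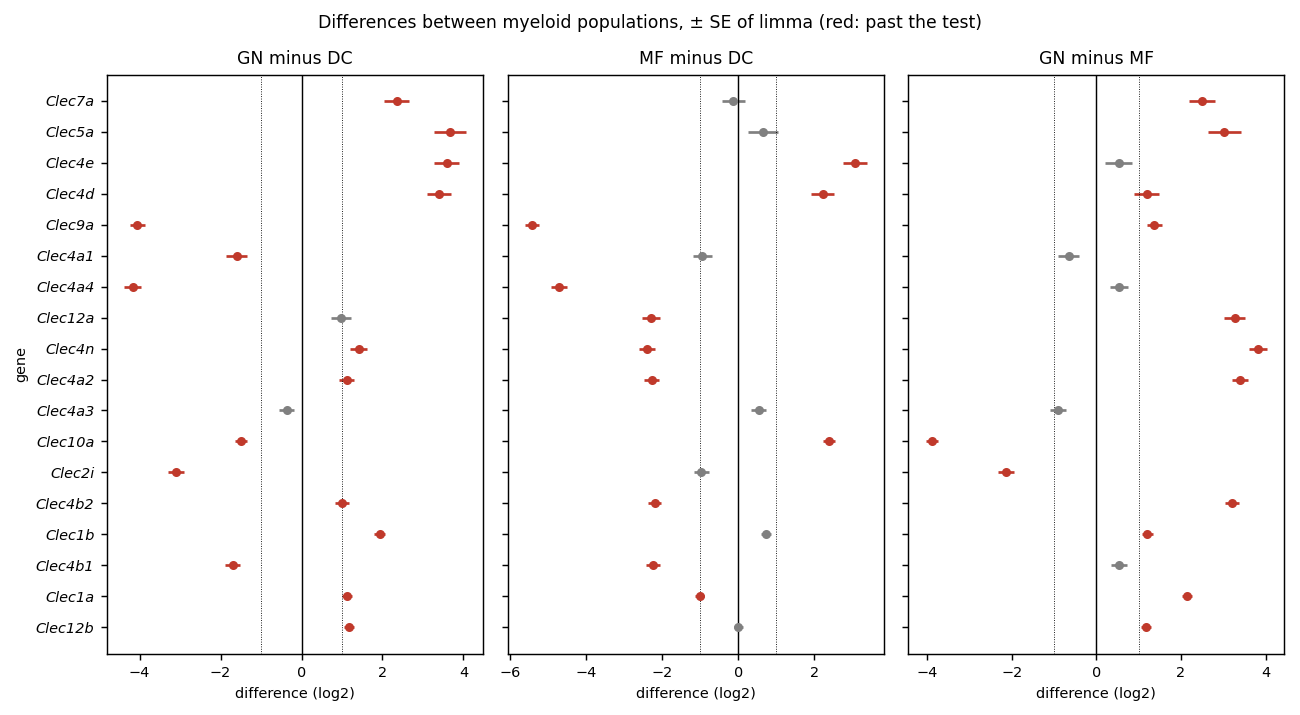
Differences in log2 intensity (GN minus DC, MF minus DC and GN minus MF) with their SE for the 18 CLEC members that passed the F test, red where the contrast passed and grey where it did not; dotted lines mark 2-fold. Clec5a, Clec4e and Clec4d lie to the right in GN minus DC, and Clec9a and Clec4a4 far to the left in both contrasts with DC.

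Several Clec2 genes encode Clr proteins that NKR-P1 receptors bind, and 1 of 8 Clec2 genes measured passed, where 39.0% of all genes did. Among the 8, Clec2l lies between Klrg2 and Hipk2 and not beside a Klrb1 gene. Clec2i (Clr-g), a ligand of the receptor encoded by Klrb1f, was lower in the myeloid than in the lymphoid populations (-1.58 ± 0.10, adjusted p = 1.41e-10). It read 10.26 and 10.25 in Tgd, 10.20 and 10.30 in NKT, 9.89 and 9.54 in DC, 8.43 and 9.05 in MF, and 6.84 and 6.38 in GN, with lymphoid arrays from 9.44 to 10.30 (median 9.87). Both GN arrays lay below all others, and GN was 8.9-fold lower than the mean of the other 8 (-3.15 ± 0.15, adjusted p = 3.72e-12). Tgd and NKT were level, and NK (9.63 and 9.44) was the lowest lymphoid population. The lymphoid range of 0.72 did not pass (adjusted p = 0.0526).

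Clec2d (Clr-b), the ligand of the inhibitory receptor encoded by Klrb1b, was bright and even, from 11.22 to 11.83 on the 18 arrays. Its range of population means, 0.54, had an adjusted p of 0.000156 but stayed under 2-fold. MF gave the lowest arrays, 11.22 and 11.29 against at least 11.46 elsewhere, a difference of -0.42 ± 0.06 from the mean of the other 8 (adjusted p = 1.1e-05). Clec2g had the next largest range of the group, 0.71, with the MF arrays at 7.24 and 6.77. Clec2e, Clec2h, Clec2j, Clec2l and Clec2m had ranges from 0.31 to 0.48. Clec2f, and Clec17a of the membrane lectins, were not analysed here.

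None of the 5 secreted or intracellular members passed, where 39.0% of all genes did. These are Clec3a, a cartilage protein, Clec3b (tetranectin), a plasma protein, Clec11a, a growth factor of bone and blood, Clec18a, and Clec16a, an intracellular protein of endosomes and autophagy. Their ranges ran from 0.29 to 0.54. Clec16a, which sits beside Socs1, read 9.21 and 9.10 in DC, 9.23 and 9.17 in GN, 8.90 and 8.93 in MF, and 8.94 to 9.27 (median 9.14) on lymphoid arrays (range 0.29, adjusted p = 0.125). Of the 15 members that did not pass, 10 were highest in GN, but so were 48.8% of the olfactory receptor genes, and over all genes the median difference of GN from the mean of the other 8 was 0.125.

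Within the lymphoid populations, Clec4e and Clec4a1 passed. Clec4e read 6.67 and 6.16 in NK, where all other lymphoid arrays lay at or below 5.56, and NKT differed from NK by -1.04 ± 0.32 (adjusted p = 0.0325). It was the only member of 33 called between NKT and NK, where 3.68% of all genes were. The call was lost without NK replicate 2 (-0.79, adjusted p = 0.223), without NKT replicate 1 (adjusted p = 0.121) and without NKT replicate 2 (adjusted p = 0.14). Granulocyte markers summed to 902.6 on the NK array with more Clec4e and 1460 on the other. Its lymphoid range, 1.27, had an adjusted p of 0.0398, which became 0.0661 under quantile normalization, 0.0512 under median scaling and 0.377 without NK replicate 2. The call was lost in 11 of 18 fits that left out an array (adjusted p from 0.0524 to 0.377), namely those of GN, NK, NKT, T4 and Tgd and Treg replicate 2. Clec4a1 read 5.86 and 6.74 in Tgd and had a lymphoid range of 1.17 (adjusted p = 0.0311), which became 0.73 without Tgd replicate 3 (adjusted p = 0.214). This call was lost in 5 of 18 fits that left out an array, with either NKT array or either Treg array as the others (adjusted p from 0.0507 to 0.214).

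Tgd replicate 3 also gave the highest lymphoid readings of Clec4a3 (6.75) and Clec12a (6.77). Summed DC markers in Tgd (4270 and 5115) were below those on each NK, T4, T8 and Treg array. These sums are weighted to bright genes, among them Ccr7, at 10.85 and 10.93 in Tgd and 11.39 to 12.31 on T4, T8 and Treg arrays. H2-Ab1 read 7.59 and 8.11 in Tgd, 6.66 to 7.41 on those arrays, and 7.64 and 8.42 in NK. From Tgd replicate 2 to 3, Cd74 rose from 8.73 to 9.52, and the 12 DC markers by a median of 0.10. Of the plasmacytoid dendritic cell list, the sum was highest in Tgd (6566 and 6857), where Ccr9 read 12.17 and 12.27. The defining marker Siglech read 6.76 and 6.58 in Tgd and 7.51 and 7.20 in DC. Tcf4 read 8.58 and 8.57 in Tgd, 9.05 and 8.94 in NK, and 6.59 to 7.35 on the other lymphoid arrays. Ly6d (7.46 and 7.37) was highest in Tgd of the lymphoid arrays. Pacsin1 (8.41 and 8.46) was lower than in T4, T8 and Treg (9.04 to 9.50). Bst2 and Cox6a2 read 9.17 and 9.06, and 8.52 and 8.55, in Tgd, against 8.22 to 9.11 and 8.34 to 9.18 on the other lymphoid arrays. B cell markers summed to 2753 and 2968 in Tgd, the highest of the lymphoid arrays, and the mast cell gene Cpa3 read 7.85 and 7.91. The part of B cell, mast cell and dendritic cell RNA in these readings was not tested. No member was called between T8 and T4 (0.962% of all genes; 2 at an unadjusted p under 0.05 in limma), Treg and T4 (0.876%; 2) or Tgd and the mean of T4 and T8 (1.47%; 5).

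Genes of the pathway around the receptors were taken from 3 lists. Of 27 signalling partners measured, 22 passed over the 9 populations (39.0% of all genes) and 7 over the lymphoid ones (9.95%). In myeloid against lymphoid cells, 11 were higher (6.39% of all genes) and 1 was lower (4.41%). Fcer1g had means of 13.02 in GN, 12.50 in DC and 12.67 in MF, but also 13.01 in NK, against 7.13 in Treg. Tyrobp likewise stood at 12.67 in GN, 12.11 in DC, 12.56 in MF and 12.52 in NK, and at 6.66 in Treg. Syk followed, with 11.90 in GN, 10.61 in DC, 10.43 in MF, 10.71 in NK and 6.56 in T8. Both adaptors and the kinase were thus high in NK, where no Clec receptor was called higher than in the other populations. Card9 was higher in the myeloid populations (9.04 in GN, 8.83 in MF and 8.09 in DC) and was 6.46 in NK. Ptpn6, at 12.04 in GN, spanned 1.88 down to 10.16 in NK. Il1b, a cytokine made after such signals, had the largest range of the list, 7.09, and read 12.84 in GN, 11.41 in DC and 5.75 in MF.

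All 16 measured lectins of the NK complex passed over the 9 populations (39.0% of all genes) and over the 6 lymphoid ones (9.95%). In the myeloid mean 12 were lower (4.41% of all genes). The NKR-P1 receptors were highest in NK. Klrb1b, the receptor of Clec2d, had means of 12.55 in NK, 9.26 in NKT, 8.31 in Tgd, 7.86 in DC and 5.67 in Treg. Klrb1f, the receptor of Clec2i, was 12.85 in NK, 11.66 in NKT, 10.59 in DC, 10.07 in Tgd and 5.83 in MF. The receptor levels thus spanned 6.88 and 7.02, where the ligand Clec2d spanned 0.54 and Clec2i 3.65. Klrb1c (NK1.1, a gate of the NK and NKT sort) was 12.57 in NK and 12.11 in NKT, Klrb1a was 11.41 in NK and 7.52 in NKT, and Klrb1 was 9.17 in NK and at most 6.58 elsewhere. Klri2 peaked in NK (11.33) and Klri1 in DC (11.99).

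Of 24 measured lectins without a Clec symbol, 14 passed over the 9 populations (39.0% of all genes). In the myeloid mean 8 were higher (6.39% of all genes) and 1 was lower (4.41%). Cd209a, a DC-SIGN homologue, had means of 12.31 in DC, 10.24 in MF and 6.90 in GN. Cd93 was 11.20 in MF and 8.93 in GN, but also 8.96 in NKT, and Cd302 was 9.68 in MF, 7.14 in GN and 6.90 in DC.

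**Figure D5:**
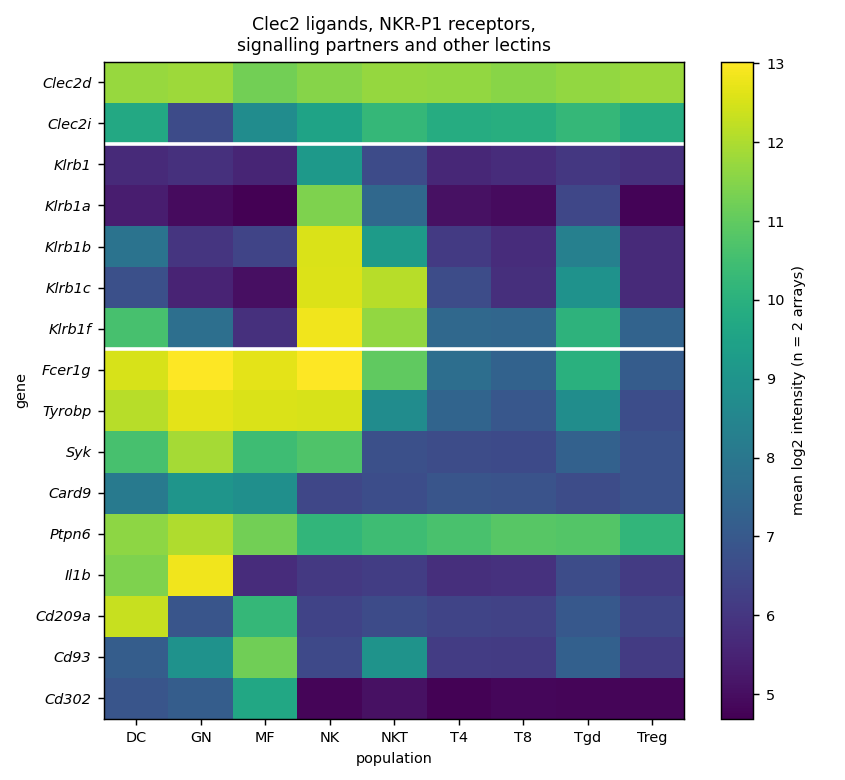
Mean log2 intensity in the 9 populations of Clec2d and Clec2i, the Klrb1 receptors, signalling partners and other lectins, 2 arrays per mean. The Klrb1 rows peak in NK (9.17 to 12.85), the Clec2d row is even, and Fcer1g, Tyrobp and Syk are high in DC, GN, MF and NK; levels compare along a row only.

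Pearson's r over the 9 population means, given as a description without a p, grouped the 18 members that passed. These points share the low lymphoid levels. For Clec9a, Clec4a4 and Clec4b1 the r rests mainly on their high DC means, and Clec4b1 lay below the olfactory floor throughout. Whether the same cells of the DC sort hold these transcripts was not tested. The closest pairs were Clec4a2 with Clec4n (0.997), Clec4b1 with Clec9a (0.995), Clec4a4 with Clec9a (0.993), Clec12a with Clec4a2 and Clec1b with Clec5a (both 0.991), Clec4a4 with Clec4b1 (0.99), and Clec4d with Clec4e (0.987). Clec2i correlated negatively with all others, from -0.18 with Clec4a4 to -0.94 with Clec12b. On chromosome 6 the order is Clec4a1, Clec4a3, Clec4a4, Clec4b1, Clec4a2, Clec4b2, Clec4n, Clec4d and Clec4e. In this order the first 4 were highest in DC or MF and the next 5 in GN. In the Dectin-1 cluster, Clec9a, highest in DC, lies between Clec1b and Clec1a, both highest in GN.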

How the data were processed

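Transcripts were measured in 18 arrays of 9 sorted populations. The authors deposited linear intensity values per probe set, made with Affymetrix Power Tools and RMA per the submitters' processing notes. Versions, and whether all arrays were normalized together, are not given in the sources used here. RMA compresses differences of dim genes. Of 24922 probe sets, 21425 had 1 symbol in GEO's platform annotation, 1399 several and 2098 none listed. Symbols were updated against RefSeq GRCm38.p6. For 921 genes with several probe sets the brightest was used, leaving 19752 genes. Log2 values were fitted with limma 3.58.1 in R 4.3.3 (1 mean per population, 18 arrays, eBayes with trend, 9 residual and 7.69 prior degrees of freedom). Contrasts are two-sided, with Benjamini-Hochberg adjustment over all genes, and a call needs an adjusted p under 0.05 and 2-fold. The fit was tested on simulated data. Errors are SE unless stated, and precision is limited by how few arrays there are.

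The members, lists and tests were chosen with earlier results of these data known. All members are named, with values per array for those that passed and Clec16a. Non-members are the 3 widest-ranging genes of each list and fixed partners. Protein sequences were not used here. Of 3 promoter motifs searched, 1 is not reported here, for a reason unrelated to its counts. Alternatives were quantile normalization, median scaling, filters on dim genes, means over probe sets, eBayes without trend, no minimum fold, a replicate block and leaving out each array.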

Additional observations from a re-analysis of the deposited data

How the results depend on the processing

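The 18 members past the test over 9 populations kept that call under each alternative run that tested them, and no direction reversed. Their highest population stayed the same except for Clec2i, whose Tgd and NKT means were level. The lymphoid count of 2 became 1 under quantile normalization and 1 under median scaling, and 0 to 2 when single arrays were left out. Quantile normalization gave 1 member higher in Tgd. Without the minimum fold, GN was higher in 26 members, NKT, T4, T8, Tgd and Treg in 1 each, and 17 members differed between MF and DC, 26 between GN and MF, 2 between NKT and NK and 2 between Tgd and the mean of T4 and T8. Over all genes that setting raised the calls from 7695 to 13694 over 9 populations, from 1263 and 872 to 4552 and 5707 in myeloid against lymphoid, and from 1389 and 2317 to 7476 and 5515 in GN. For the other contrasts in that setting, calls over all genes are not given here. Those member counts are therefore not a result about the family. Leaving out single arrays gave 0 to 1 between NKT and NK and 0 to 1 between Tgd and the mean of T4 and T8 (1 without Tgd replicate 2). The causes were not tested.

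Replicate numbers were not used to pair the arrays in the main fit. Over 36 pairs of same-numbered arrays, from populations with the same 2 numbers, deviations correlated from -0.161 to 0.468 (median 0.0876, 16 above 0.1). With 2 arrays per population the deviations mirror each other, so each correlation is counted 2 times. Whether same-numbered arrays share a source was not tested. With the replicate block the count between NKT and NK was 0, since Clec4e stood at -0.82 (adjusted p = 0.103), and Clec1a between MF and DC stood at -0.99. No other call of a named member changed. Of the values for single members, 29 lost a call and 2311 kept their side when 1 array was left out. With 2 arrays per population, differences near 2-fold and levels near the olfactory floor are the least certain.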
